A study of Mus musculus with 2 samples.

Results

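Exonic peaks outside promoters were the 3620 of 99782 annotated anti-FLAG peaks (3.63%, 95% Wilson interval 3.51 to 3.75) whose region of maximum signal the authors' annotation table placed in an exon (class Exon, 3514 peaks) or in a 5′ UTR (class 5′ UTR, 106 peaks). The data were CUT&Tag peaks of PARIS, a repressor of transcription with zinc fingers, which is the product of the mouse gene Zfp746. Hippocampal nuclei of C57BL/6J mice with the genotype CamK-PARIS gave 1 library with an anti-FLAG antibody and 1 library with IgG, and neither received a treatment. Both libraries therefore share the genotype, and the labels give no animal without the transgene, no age, no number of animals and no statement of which cells carry it. With 1 library per antibody there is no replicate error, so all intervals below cover counting error over peaks of the anti-FLAG library only, and no difference is tested.

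CUT&Tag tethers a transposase to an antibody on chromatin, and the DNA cut nearby is sequenced. The strand of origin is not kept, so a peak on an exon is a peak on double-stranded DNA and says nothing about RNA. Exons make up a small part of a gene. Coding exons differ from the introns around them in base composition, because codons and splicing signals constrain them. PARIS has been described as a repressor that binds insulin response sequences, A/T-rich elements, in the promoter of Ppargc1a, the gene of a coactivator of mitochondrial biogenesis.

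The class mixed several kinds of sequence. The midpoint of the region of maximum signal lay on coding sequence in 867 of the 3620 peaks (24.0%, 22.6 to 25.4). It lay on other exon sequence, that is on a UTR or on an exon of a noncoding transcript, in 1336 (36.9%, 35.3 to 38.5). In the remaining 1417 (39.1%, 37.6 to 40.7) it lay outside every exon of GENCODE M21. The region touched coding sequence at any base in 1781 peaks (49.2%, 47.6 to 50.8).

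The sequences at the middle of some named members show coding and noncoding exons side by side, on mm10 and 5′ to 3′ on the strand of the transcript that owns the exon. Capitals mark CpG dinucleotides, since the share of CpG-rich windows is compared further on. The first 5 lie on coding sequence (Ppp2r3d at chr9:124424092-124424121, Tbr1 at chr2:61812212-61812241, Zfhx2 at chr14:55062985-55063014, Dlg4 at chr11:70039136-70039165 and Muc5ac at chr7:141805632-141805661), and Gm29675 (chr13:30786500-30786529) and Clcf1 (chr19:4220840-4220869) lie on exons of noncoding transcripts.
Ppp2r3d: gtggaCGagctcttcCGgCGctggctCGgc
Tbr1: acctgtcCGactccagctggatCGagaCGc
Zfhx2: acaggcagcactggcatctccacCGtggat
Dlg4: ctgctaggggaggaagatattcccCGggaa
Muc5ac: CGggcaacagttccatcctggggagatcat
Gm29675: ctctcactgttagagtactgagcaggCGca
Clcf1: ggttcagggtatggagggtggttgtgccat
The stretch in Ppp2r3d holds 4 CpG dinucleotides and the one in Tbr1 holds 3, against 1 each in Zfhx2, Dlg4, Muc5ac and Gm29675 and 0 in Clcf1.

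A further set shows members whose region of maximum signal ran across the edge of an exon, to different extents. Capitals mark exon bases and lower case the intron. The region of maximum signal of each crossed the splice site printed, at chr11:98970142-98970171 for Rara, chr15:27825760-27825789 for Trio and chr10:5114106-5114135 for Syne1.
Rara, exon 5 of 9: cctccctccccccagCGGTGCGAAACGATC
Trio, exon 29 of 57: gttgatcttctccagGAGCTGCTCACATGC
Syne1, exon 116 of 146: tcttctttccaaaagGTTGAACAATTAAAG
In Rara 87.1% of the region lay on exon sequence, but in Syne1 37.7% and in Trio 20.2%. Trio and Syne1 are thus exonic by the authors' class while most of the region of maximum signal is intronic.

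Transcripts of coding genes owned the exon of 1738 members (48.0%, 46.4 to 49.6). Long noncoding transcripts owned 973 (26.9%, 25.5 to 28.3), of which 552 were lincRNAs, 223 antisense and 164 processed transcripts. Retained-intron transcripts, which are spliced forms that keep an intron and are not translated, owned 314 (8.67%, 7.80 to 9.64). Another 251 (6.93%, 6.15 to 7.81) were on TEC models, GENCODE's class of transcribed stretches that await experimental testing, and 233 (6.44%, 5.68 to 7.28) on pseudogenes. Small noncoding RNAs owned 55 members, immunoglobulin and T-cell receptor segments 11, and for 45 the transcript was not in GENCODE M21.

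Internal exons held 1675 members (46.3%, 44.7 to 47.9), last exons 913 (25.2%, 23.8 to 26.7), single-exon transcripts 638 (17.6%, 16.4 to 18.9) and first exons 288 (7.96%, 7.12 to 8.88), by the exon number in the authors' table. Exon length went with how a peak sat on its exon. Internal exons with a member had a median length of 146 bp, and the region of maximum signal held the whole exon in 505 of 1641 (30.8%) and lay inside it in 248 (15.1%). Last exons had a median length of 1692.5 bp, and the region lay inside the exon in 599 of 908 (66.0%). For single-exon transcripts the median was 1866.5 bp, with 394 of 632 regions (62.3%) inside.

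**Figure D1:**
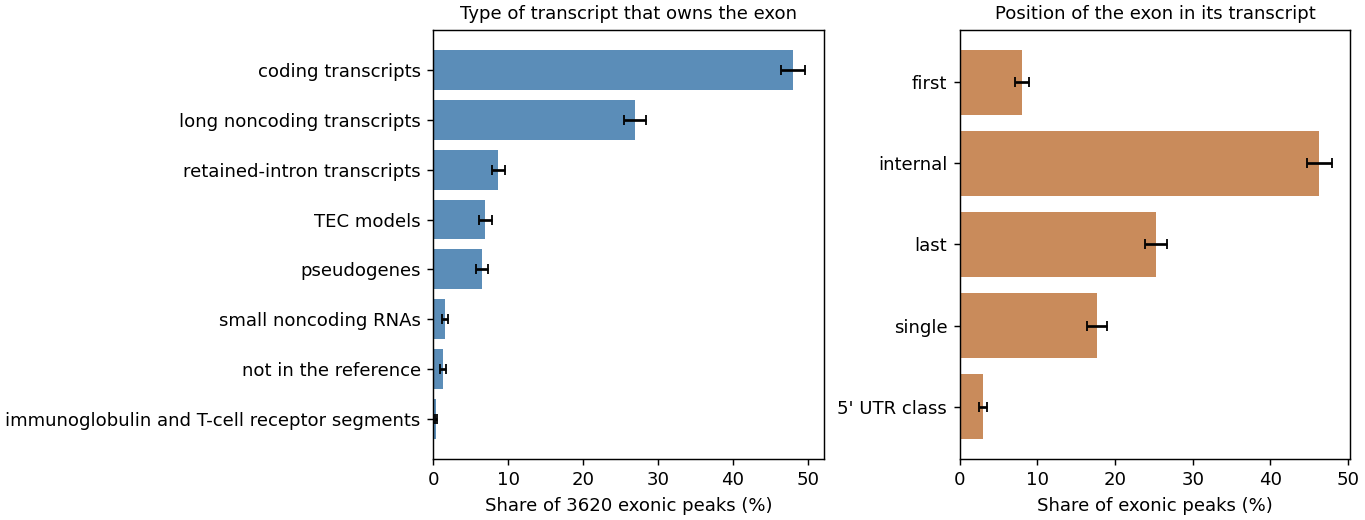
Share of the 3620 exonic peaks (percent) by the type of transcript that owns the exon (left) and by the position of the exon in that transcript (right); bars are shares and whiskers Wilson 95% intervals. Coding transcripts own 48.0% of members, and internal exons hold 46.3%.

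The share of peaks classed as exonic rose with the width of the region of maximum signal. Of annotated peaks whose region was under 100 bp wide, 2.41% (2.24 to 2.58) were exonic. This share was 3.29% at 100 to 199 bp, 3.78% at 200 to 299 bp, 4.32% at 300 to 399 bp and 5.60% (5.28 to 5.94) at 400 bp or more. By the middle of the region, the share on an exon or 5′ UTR outside promoters was 1.23% (1.11 to 1.36) in the narrowest group and 1.55% (1.38 to 1.74) in the widest. Among exonic members the middle lay outside exons for 16.3% in the narrowest group and 58.7% in the widest. A median of 62.3% of the region and 51.9% of the whole peak lay on exons, 1396 members had the region wholly on exons, and 1166 had the whole peak there.

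**Figure D2:**
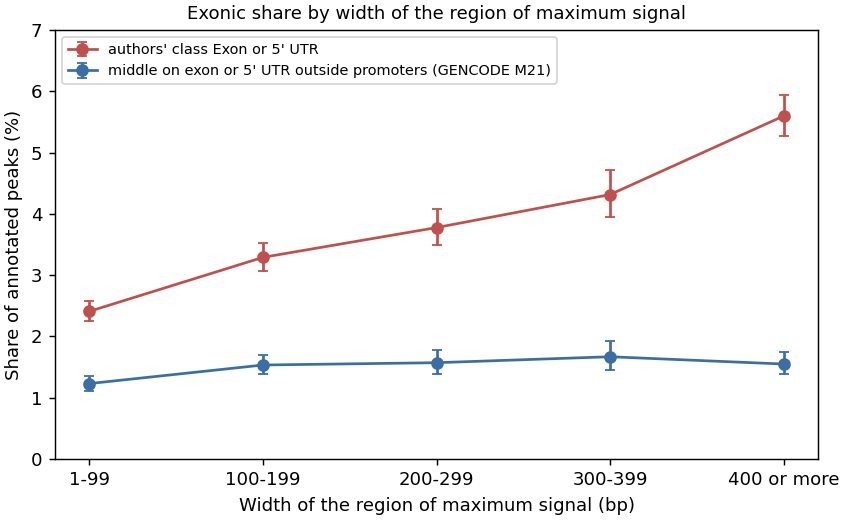
Share of annotated peaks (percent) that were exonic against the width of the region of maximum signal (bp), by the authors' class and by the middle of the region in GENCODE M21; whiskers are Wilson 95% intervals. The authors' class rises from 2.41% to 5.60%, and the share by the middle stays between 1.23% and 1.67%.

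The authors' distances placed no member within 3 kb of the transcription start site (TSS) assigned to it. The smallest distance was 3001 bp and the median 12353.5 bp (quartiles 6000.75 and 30539.8 bp), and 1345 members (37.2%) lay upstream of the assigned TSS. Measured to any TSS of GENCODE M21, however, 1264 members (34.9%, 33.4 to 36.5) lay within 3 kb and 899 (24.8%, 23.5 to 26.3) within 1 kb. The corresponding 3 kb share was 4.66% for peaks in introns after the first and 9.70% for 3′ UTR peaks. For the 1264 members within 3 kb, the nearest start belonged to a lincRNA in 320, a TEC model in 253 and a processed pseudogene in 185. In 131 the nearest start belonged to an antisense RNA and in 101 to a retained-intron transcript. It was the start of a coding transcript in 59 (4.67%, 3.64 to 5.97).

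The gene assigned to a member was often not the gene that owned the exon. Of the 3514 peaks of class Exon, 1401 (39.9%) lay on a transcript to which the table gives no gene number, 1646 (46.8%) on the assigned gene and 467 (13.3%) on another numbered gene. Symbols of exon owner and assigned gene were the same in 1790 of the 3575 members whose transcript is in GENCODE M21 (50.1%, 48.4 to 51.7).

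Exonic peaks were slightly lower than intronic ones when all peaks were counted, but not when peaks of constant height (defined below) were left out. The maximum signal, which is the authors' highest coverage within the peak, had a median of 95 (95% interval of the median 93 to 97) and quartiles of 61 and 127. Peaks in introns after the first had a median of 100 (100 to 101), 3′ UTR peaks 96 (93 to 99), promoter peaks 110 (109 to 111) and all annotated peaks 101. Without peaks of constant height the median was 134 (129 to 142) for members and 129 (127 to 131) for peaks in introns after the first. Within the exonic class the height went with the place of the middle. Members with a coding middle had a median of 106 (102 to 109), those on other exon sequence 101 (97 to 104) and those outside exons 83 (79 to 87). By transcript type the medians were 95 for coding, 97 for long noncoding, 98 for retained-intron, 96 for TEC and 83 for pseudogene exons, and only the interval for pseudogenes (73 to 94) did not include 95.

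**Figure D3:**
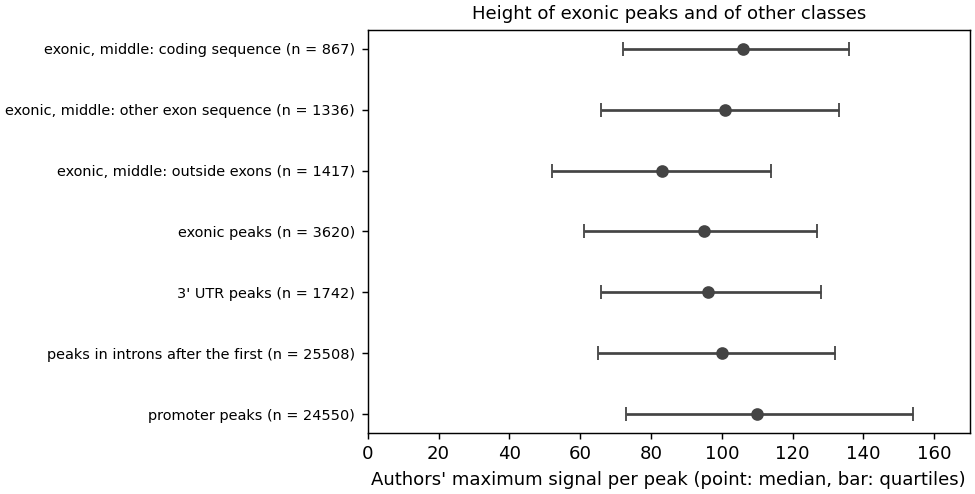
The authors' maximum signal per peak (points, medians; bars, quartiles) for members by the place of their middle, for all members and for 3 other classes. Members with a coding middle have a median of 106, and members with the middle outside exons 83.

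Tall members were few. A maximum of at least 200 was reached by 242 members (6.69%), against 7.03% of peaks in introns after the first, 8.78% of all annotated peaks and 8.54% of members with a coding middle, and 51 members reached 300. Ranked by maximum signal into 5 groups of 724, the share with a coding middle was 19.1% (16.4 to 22.1) in the lowest group (maximum 5 to 53) and 31.1% (27.8 to 34.5) in the highest (135 to 590). The share with the middle outside exons went the other way, from 50.1% to 24.9%. Median peak width was 547.5 bp in the lowest group, 230 bp in the fourth and 405 bp in the highest.

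Most members had a constant height, with total signal at least 99% of maximum signal times width. This held for 2673 (73.8%, 72.4 to 75.2), against 66.3% of peaks in introns after the first, 70.4% of 3′ UTR peaks and 51.2% of promoter peaks. It was 67.8% with a coding middle and 81.2% with the middle outside exons, and 34.8% in the highest of the 5 groups by maximum signal. The region of maximum signal was also wider in exonic peaks, with a median of 242 bp against 178 bp in introns after the first. In a peak of constant height that region is nearly the whole peak, so its width and the exonic class move together here. The part of this in the results was not tested beyond the values given with and without such peaks.

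Exon sequence carried somewhat more peaks per base than intron sequence. Counting by the middle of the region and outside promoters, coding exons had 53.1 peaks per Mb (Poisson interval 49.6 to 56.8, 849 peaks), exons of noncoding transcripts 41.0 (37.7 to 44.5, 584 peaks) and introns 42.1 (41.7 to 42.6). The 5′ UTRs had 52.4 per Mb from 23 peaks (33.2 to 78.6), 3′ UTRs 51.3 (48.6 to 54.2) and intergenic sequence 23.2. Exons and 5′ UTRs together stood at 1.13 times the intronic density (1.07 to 1.19). Without peaks of constant height the ratio was 1.0003 (0.909 to 1.10), while coding exons alone were at 1.14 times, with 16.1 per Mb (14.2 to 18.2) against 14.1 in introns (13.8 to 14.3). Noncoding exons without such peaks were at 0.837 times, with 11.8 per Mb (10.1 to 13.7). Density showed no steady order with exon length. It ranged from 44.0 per Mb in exons of 101 to 150 bp to 54.6 in exons of 501 to 1000 bp, and the intervals of these classes overlapped.

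**Figure D4:**
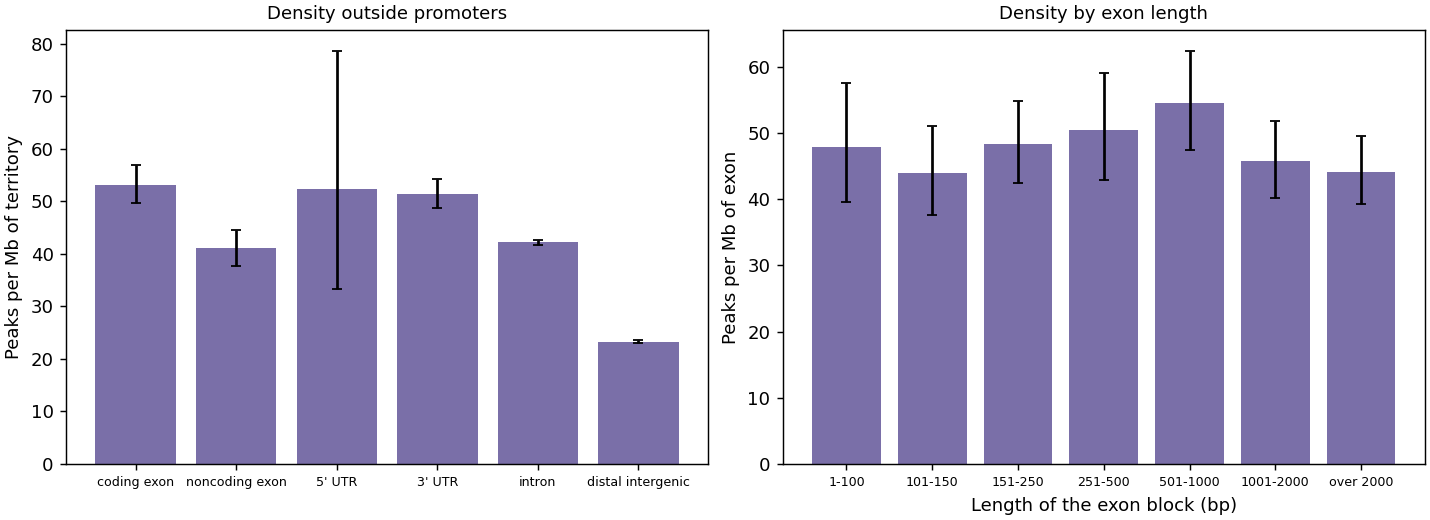
Peaks per Mb by the place of the middle outside promoters (left) and per Mb of exon by exon length in bp (right); whiskers are Poisson 95% intervals. Coding exons stand at 53.1 and introns at 42.1 peaks per Mb.

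Exonic summits were richer in GC than their surroundings, and those on coding sequence most of all. In 200 bp windows the members averaged 50.1% GC against 46.1% in flanks 1000 bp away, a difference of 3.93 percentage points (SD 8.13 over windows). With a coding middle the values were 55.4% and 48.2%, a difference of 7.28 points (SD 7.33). The difference was 2.55 points in introns after the first, 2.09 in 3′ UTR peaks, 5.57 in promoter peaks and 3.44 over all annotated peaks, so the members as a whole were near the full set. Windows with at least 55% GC and a CpG ratio (observed over expected) of at least 0.6 made up 4.40% of members (3.78 to 5.12). This was below the 6.27% of all annotated peaks (6.12 to 6.42). The share was 10.97% of members with a coding middle (9.06 to 13.2) and 2.30% of 3′ UTR peaks (1.69 to 3.12). It was 0.396% of peaks in introns after the first (0.326 to 0.481), against 22.5% of promoter peaks. Repeat-masked bases took 14.6% of member windows, 6.40% of those with a coding middle and 22.8% in introns after the first. In 3′ UTR peaks they took 13.0% and in promoter peaks 15.2%, near the members as a whole.

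Base composition at coding exons in general was measured for comparison. Windows at the middle of all 90484 coding exon blocks outside promoters averaged 47.7% GC and stood 3.77 points above their flanks, and 2.59% were CpG-rich. Windows of the 848 peaks with their middle on these exons averaged 55.4%, stood 7.30 points above their flanks, and 9.79% were CpG-rich. Windows of peaks on coding exons were thus more GC-rich than those at the middle of all coding exon blocks. Their flanks were too, at 48.1% against 43.9%. For noncoding exons the windows averaged 43.5% over all 24160 blocks and 47.6% at the 584 peaks, near the 47.3% of intronic peaks. Many blocks are shorter than the 200 bp window, so that the window also takes in sequence beside the block. Of the coding and noncoding blocks together, 36320 were 1 to 100 bp long and 31409 were 101 to 150 bp. The values are thus not the composition of exon sequence alone. Each block counts once whatever its length, whereas peaks fall on long exons more often, and the part of length in these differences was not tested.

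The insulin response sequence was searched as TATTTTT or TATTTTG on either strand. It was present in 8.41% of member windows (7.55 to 9.36) and 12.7% of flanking windows (11.96 to 13.5), and in 9.98% of windows of all annotated peaks. In members with a coding middle the share was 2.89% (1.963 to 4.23) against 11.3% in flanks. In those with the middle outside exons it was 11.3% (9.77 to 13.1) against 13.1%, close to the 10.96% of peaks in introns after the first. Of windows at the middle of all coding exon blocks, 9.995% held it (9.80 to 10.2), with the limit on block length given above. Of windows of peaks on coding exons, 2.71% held it (1.81 to 4.04). On TEC models the share was 15.9% (11.9 to 20.97) at the summit and 13.5% in flanks (10.8 to 16.8). In the members as a whole and in those with a coding middle, summits had more GC and a lower share with the sequence than flanks. On TEC models summits also had more GC (46.6% against 44.2%), but the share with the sequence was not lower, and its intervals overlapped. Small noncoding RNAs, with 55 members, likewise had 18.18% at summits against 9.09% in flanks, again with overlapping intervals. The share was lower at summits on coding (6.57% against 11.91%) and long noncoding transcripts (9.25% against 12.54%). It was also lower on retained-intron transcripts (10.51% against 16.08%) and pseudogenes (6.44% against 13.95%). TEC models were thus not typical of noncoding owners. The part of GC content in these shares was not tested.

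**Figure D5:**
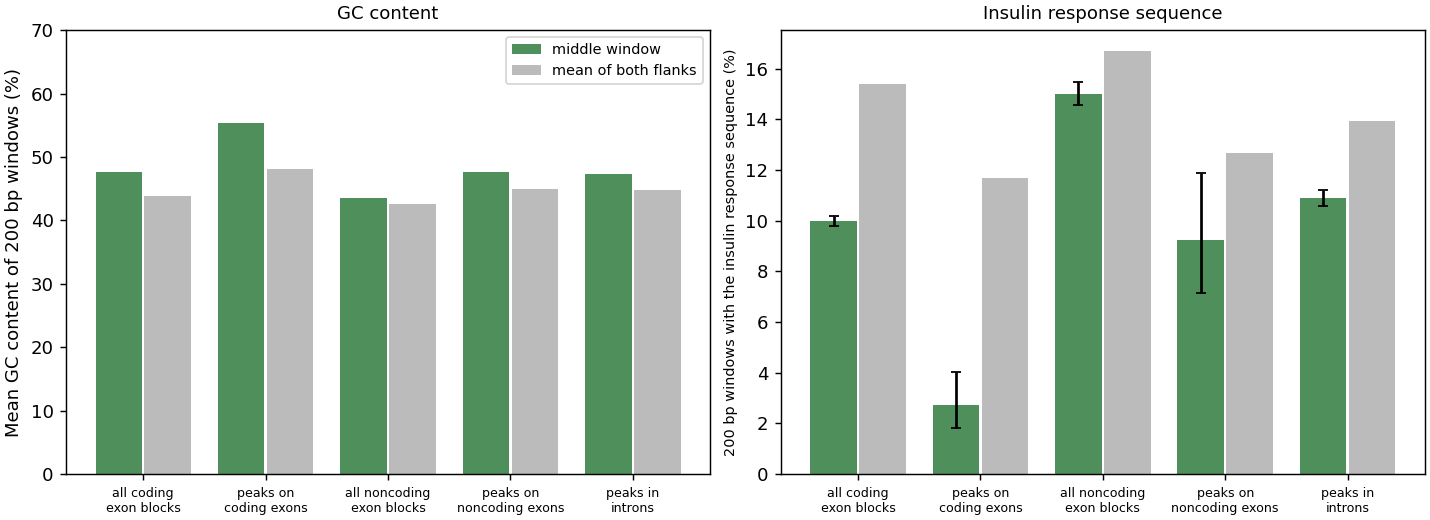
Mean GC content (percent, left) and share of 200 bp windows with the insulin response sequence (percent, right) at the middle and in flanks 1000 bp away, for all exon blocks and for peaks; whiskers on the middle windows are Wilson 95% intervals. Peaks on coding exons average 55.4% GC and 2.71% with the sequence, against 47.7% and 9.995% for windows at the middle of all coding exon blocks. Many blocks are shorter than the window.

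Matches near the summit of 3 of the named members are shown because the element is the one reported for PARIS. Capitals mark the match, and a match is a description of the letters, not a measured contact. They lie at chr13:93312855-93312883 for Gm47075 (a TEC model, assigned gene Homer1), chr9:46352168-46352196 for Gm31374 (assigned 4931429L15Rik) and chr2:109499334-109499362 for Gm13925 (a pseudogene, assigned Bdnf).
Gm47075: aagaattgtatTATTTTGtgaagtctttg
Gm31374: atcagttcggtTATTTTTattactgtgac
Gm13925: tgatgacttacTATTTTGtcaacgagatc
Noncoding transcripts owned the exon of all 3, beside coding transcripts as owners in 48.0% of all members. The middle of the members at Gm31374 and Gm13925 lay outside exons. The maximum signals of the 3 were 199, 158 and 141. Most named members held no match. Others with one were on Gm45159, 4930448E22Rik and Gm43483 and on an exon without a known owner assigned to Dlg2.

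Of the 8 members with the highest maximum signal, 5 were on lincRNAs, beside 15.2% of all members. These 8 are the extreme of a ranking and give no precise share. Over all members the median maximum signals on long noncoding (97) and coding exons (95) were close. The highest maximum signal, 590, was in exon 2 of 2 of the lincRNA Gm29675 (chr13:30786049-30787421), which the table assigns to Irf4, a transcription factor gene 37201 bp away. The next, 548, was in a retained-intron transcript of Clcf1 (chr19:4220354-4221371), a cytokine gene. Gm32224 (assigned 4930572O13Rik) followed with 520, Gm48277 (assigned Gramd1b) with 492, 1600002D24Rik with 489 and Gm31333 with 449, all lincRNAs. Of the 8 tallest, those on coding exons were Ppp2r3d with 450 and Muc5ac with 440. Muc5ac, which encodes a secreted mucin of airway and stomach, had its peak in exon 30 of 49 (chr7:141804980-141805765), 16635 bp from the assigned TSS. None of these 8 had a constant height.

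Ppp2r3d, a regulatory subunit gene of protein phosphatase 2A, had the highest total signal of all members, 629019, over 3515 bp (chr9:124422537-124426051). Its region of maximum signal was in exon 1 of 2 with 72.0% GC and a CpG ratio of 1.06. The table gives a distance of 52764 bp, but a GENCODE M21 start of Ppp2r3d lay 20 bp away. Mir670hg, a microRNA host gene (assigned Mir670), was next by total signal with 295735 and lay 2 bp from a start of its own. Gm29675 (281985) and 1600002D24Rik (269787) followed. Rara, the gene of retinoic acid receptor alpha, came next with 251645 and a maximum of 373 in exon 5 of 9 (chr11:98969042-98970585), 9733 bp from the nearest GENCODE start.

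Among the 106 members of class 5′ UTR the median maximum signal was 96.5 (83 to 110), and 69.8% had a constant height. Of those named, Nim1k, a protein kinase gene, reached 289 (chr13:119727275-119728111), Atxn1l 253, Sh2d6 (assigned Capg) 237 and Mgat1, which starts complex N-glycan synthesis, 221. The peak of Sh2d6 lay on a GENCODE start and those of Nim1k, Atxn1l and Mgat1 1373 to 10520 bp from one. In Nim1k and Sh2d6 the middle fell on coding sequence in GENCODE M21, not on the UTR.

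Members were spread over many genes. They were assigned to 2882 genes, of which 2347 had 1, 403 had 2 and 132 had 3 or more, and by exon owner they fell on 3080 genes. Auts2 had the most assigned members, 12 of its 96 assigned peaks, with maximum signals from 27 to 164 (median 82). Only 1 of them was on an Auts2 transcript and none had a coding middle. Dlg2, a postsynaptic scaffold gene, had 9 (56 to 155, median 100), of which 7 were on transcripts of other names and 2 on a transcript of 28 exons that is not in GENCODE M21, so that its owner is not known here, and 4931429L15Rik had 6 (24 to 277), none on its own exons. Syne1, the gene of the nuclear envelope protein nesprin, differed: all 8 of its members were on Syne1 exons, with maximum signals from 42 to 139 (median 80.5), and 2 had a coding middle. Trio, a guanine nucleotide exchange factor gene, had 7 (36 to 211, median 135), of which 6 were on Trio exons. On exons of coding transcripts, Muc5b, Ryr1 and Trio followed Syne1 with 5 members each, and all 4 members of Dnah10, an axonemal dynein gene, had a coding middle.

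Of the 14 gene lists, that of the neuronal cytoskeleton and of giant scaffold proteins had the highest share of genes with an exonic member, and it holds long genes with many exons. An exonic member was assigned to 15 of 23, and 12 owned the exon of one, of which 9 had a coding middle. All 23 had a peak of some class, beside 72.6% of all 21923 protein-coding genes. Over the latter, a member was assigned to 2495 (11.4%), 1773 (8.09%) owned the exon of one, and 752 had a coding middle. The median maximum signal of the 30 members of the list, 93.5, was near the 95 of all protein-coding genes. Dst, which links cytoskeletal filaments, had 162 in exon 23 of 24 (chr1:34178255-34178421) and 133 in exon 24. Ank3, the gene of the axon initial segment scaffold ankyrin-G, had 123 in exon 40 of 43 (chr10:70002291-70002465), Bsn, of the presynaptic active zone, 119 in exon 6 of 12, and Map1a, a microtubule-binding protein gene, 117 and 42 in exon 5 of 7. The tallest of this list, 239, was assigned to Ank2 but lay on the TEC model Gm42974.

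Postsynaptic density and glutamate receptor genes had an assigned member in 13 of 28 (46.4%), with 10 (35.7%) that owned the exon and 4 with a coding middle. Over all 21923 protein-coding genes these were 11.4%, 8.09% and 752 genes. All 28 had a peak of some class, beside 72.6% of all protein-coding genes. Of protein-coding genes with a peak, 15.7% had an assigned member. Dlg4, whose product organises the postsynaptic density, had 174 in exon 11 of 22 (chr11:70038967-70039222). The AMPA receptor subunit genes Gria2 and Gria1 had 147 in exon 4 of 16 (chr3:80731640-80732594) and 132 in exon 8 of 16 (chr11:57228894-57228987). The tallest, 199, was assigned to Homer1 and lay on the TEC model Gm47075. Presynaptic vesicle genes had an assigned member in 9 of 21 (42.9%), and 5 (23.8%) owned the exon. All 21 had a peak of some class. Among the named members of this list were 2 on transcripts of other genes: 204 assigned to Cplx2 on the lincRNA Gm48622, and 155 assigned to Slc17a6, a vesicular glutamate transporter gene, in exon 15 of 22 of Ano5.

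Immediate early genes, which respond to neuronal activity, all had a peak of some class (20 of 20), beside 72.6% of all protein-coding genes. An exonic member was assigned to 3 (15%), near the 15.7% of all protein-coding genes with a peak. None of the 20 owned the exon, beside 8.09% of all protein-coding genes. The members assigned to Dusp1 (202 and 125), Bdnf (141) and Fosl2 (102) lay on lincRNAs, a pseudogene and a TEC model. Neuronal transcription factor genes with large or single exons had 5 of 28 as exon owners, 4 of them with a coding middle. Zfhx2 had 358 in exon 10 of 10 (chr14:55062835-55063230, assigned Thtpa), and Tbr1, a factor of glutamatergic neurons of the cortex, had 198 and 63 in exon 6 of 6. Bcl11a had 130 on a retained-intron transcript (chr11:24090511-24090857).

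Zinc finger protein genes were near all protein-coding genes, with an assigned member in 53 of 449 (11.8%) and exon ownership in 37 (8.24%). The tallest of that list, on Gm13243 (assigned Znf41-ps) with 280, Gm44997 (assigned Zfp977) with 262 and Gm6410 (assigned Zfp958) with 222, lay on a processed pseudogene, a TEC model and a lincRNA. Olfactory and vomeronasal receptor genes had an assigned member in 18 of 1735 (1.04%), and 319 (18.4%) had a peak of any class. The same shares of all protein-coding genes were 11.4% and 72.6%. Clustered protocadherin genes had 3 of 57, but only 13 had a peak of any class. An exonic member was thus assigned to 23.1% of those with a peak, beside 15.7% of all protein-coding genes with a peak. None of these genes owned the exon: all 4 members were on antisense transcripts, up to 239 at Gm10544 (assigned Pcdhac2). Replication-dependent histone genes had 3 of 70 (8.57% of the 35 with a peak), the tallest 226 on the lincRNA Gm42743 (assigned H2bc18). Of 39 Hox genes, 23 had a peak, and Hoxd9 alone (4.35% of these) had 1 assigned member, 118, on the microRNA gene Gm44463.

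Markers of glial cell types had an assigned exonic member in 1 or 2 genes per list, beside 11.4% of all protein-coding genes, and lists this short give no precise share. Oligodendrocyte markers had 1 of 11 (9.09%), Mobp, a myelin protein gene, with 165 (class 5′ UTR, chr9:120167727-120168157). Astrocyte markers had 2 of 9 (22.2%), with 107 in exon 3 of 3 of an Aldh1l1 transcript as the tallest. Microglia markers had 2 of 9 (22.2%), among them P2ry12, a purinergic receptor gene, with 54 on the TEC model Gm43589. No RNA was measured, so the labelled tissue could not be checked by expression. None of the 9 genes linked to PARIS or to the transgene (Camk2a, Zfp746, Nrf1, Tkt, Mdm4, Igfbp1, G6pc, Pck1 and Ppargc1a) had an exonic member. Of them 8 had a peak of another class, beside 72.6% of all protein-coding genes with a peak of any class.

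Assigned genes of exonic members often had a promoter peak as well. This held for 2512 of 3620 members (69.4%, 67.9 to 70.9), against 76.4% (75.9 to 76.9) of peaks in introns after the first and 75.3% (73.2 to 77.3) of 3′ UTR peaks. For members with a coding middle it was 71.4% (68.3 to 74.3). Taken by the gene that owned the exon it was 1638 of 3575 (45.8%, 44.2 to 47.5). Promoter peaks are known here only by their assigned gene, however. Of the peaks of class Exon, 39.9% lay on transcripts without a gene number. The shares by assigned gene and by exon owner are therefore not alike, and the part of this in the lower share was not tested.

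The exonic share of peaks varied between chromosomes. It was highest among the autosomes on chromosome 7, with 308 of 6297 peaks (4.89%, 4.39 to 5.45), followed by chromosome 5 (298 peaks, 4.32%), and lowest on chromosome 16 (91 peaks, 2.61%, 2.13 to 3.19). Chromosome X had 67 exonic peaks (3.39%, 2.68 to 4.29), within the range of the autosomes by this share. Per Mb of exon and 5′ UTR sequence outside promoters in GENCODE M21, however, it had 59.2 exonic peaks. The autosomes ran from 92.3 on chromosome 16 to 162 on chromosome 5. These rates count all members by the authors' class, also those whose middle lay outside that sequence. They are therefore not on the scale of the densities by the middle given above. Chromosome Y had 7 of 93, and no member lay on unplaced sequence.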

How the data were processed

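Chromatin of hippocampus from CamK-PARIS mice was profiled by CUT&Tag. Per the labels' protocols, trimmed reads were mapped by the authors to mm10 (Bowtie2), reads of low quality and duplicates were dropped, and SEACR found peaks of the anti-FLAG library with the IgG library as its control. Versions and settings are not given in the sources used here. The deposited peak list (99797 peaks) holds total signal and maximum signal per peak as the authors' coverage values, and its total signal equalled that in the deposited annotation table for all 99782 annotated peaks. How the signal was scaled, the annotation tool, its transcript set and the sequencing depth are not given either. The IgG library itself was not analysed here and acts only as that control.

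Members were the rows of class Exon or 5′ UTR. Positions were counted from 1 and compared with GRCm38.p6 sequence (RefSeq) and GENCODE M21, which held the assigned transcript of 99.0% of annotated peaks. The midpoint of the region of maximum signal was classified in the order promoter (3 kb of any TSS), 5′ UTR, 3′ UTR, exon, intron, intergenic for densities. The split into coding sequence, other exon sequence and outside exons looked at exons alone. A peak of constant height had a ratio of total signal to maximum times width of at least 0.99. Windows were 200 bp, with flanks 1000 bp to either side. Intervals are 95% (Wilson for shares, Poisson for densities, order statistics for medians) and cover counting error only. Scripts used Python 3.11.15, numpy 2.4.6, pandas 2.3.3, scipy 1.17.1 and matplotlib 3.10.9, and the classification and counting were tested on simulated data.

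The members, the 14 gene lists and the rule for named genes were chosen with earlier results of these data known. Named are the 8 members with the highest maximum signal, the 5 with the highest total signal, the 5 of class 5′ UTR with the highest maximum signal, the 5 genes with the most members and up to 3 genes per list, of which some are not reported here. Further members of these lists (Map1a, Bsn, Gria1, Gria2, Fosl2 and others) and the genes that own most exons were named after their values were seen. Alternatives were stricter peak sets, other definitions of an exonic peak, longer windows and other thresholds.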

Additional observations from a re-analysis of the deposited data

How the results depend on the processing

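The 9 results were recomputed under 62 alternatives, of which 7 were chosen after seeing the data. In 22 the value stayed within its counting interval and in 40 it moved; except where a setting by construction keeps other peaks, the cause was not tested. No paired analysis was possible because each antibody has 1 library, so no library could be left out either.

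With only peaks above the median maximum signal, the exonic share was 3.29%, the coding share 28.3%, the last-exon share 27.0%, the median maximum signal 131, the constant-height share 60.9%, the GC difference 5.04 points and the insulin response sequence share 7.21%. Without peaks of constant height these were 2.59%, 29.5%, 28.8%, 134 (no constant-height share by construction), 5.76 points and 5.92%, the density over introns was 1.0003, and the share with a promoter peak 71.8%. Peaks at least 200 bp wide gave an exonic share of 3.77%, a coding share of 22.3%, a median of 87, a constant-height share of 66.7% and a GC difference of 3.56 points.

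Members redefined by the middle of the region in GENCODE M21 made up 1.46% of peaks, with a coding share of 58.9%, a median of 102, a constant-height share of 70.3%, a GC difference of 5.40 points, the sequence in 5.36% and a promoter peak in 71.2%. Members with at least 50% of the peak on exons made up 1.88%, with a coding share of 32.1%, a last-exon share of 38.03%, a median of 102, a GC difference of 4.94 points and the sequence in 7.16%. Their density was 0.891 times the intronic one, below 1 where the main value was above it, because this setting drops exonic peaks and no intronic ones. Left out within 3 kb of any GENCODE start (chosen after seeing the data), the exonic share was 3.39% and the coding share 32.6%. A ratio of at least 0.95 gave a constant-height share of 75.6%, 400 bp windows gave the sequence in 16.6%, and promoter peaks within 1 kb only gave 58.5%. The host gene in place of the assigned gene (also chosen after seeing the data) gave 45.8%, though promoter peaks are known only by their assigned gene.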

Other observations

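The tallest members with a coding middle are named here after their values were seen, as the top of a ranked list that runs on below them. Besides Ppp2r3d, Muc5ac, Rara and Zfhx2, the highest maximum signals, from 351 to 414, were reached on coding exons of Icam5, a neuronal adhesion gene of the forebrain (414, exon 9 of 11, assigned Mir1900), Lrp6, a Wnt coreceptor gene (388, exon 23 of 23), Adcy5, an adenylyl cyclase gene (383, exon 4 of 21), Lingo1, a neuronal membrane protein gene (383, exon 4 of 4), 2310034G01Rik (361, exon 2 of 2, assigned Mir146b), the transcription factor gene Runx1 (357, exon 8 of 8) and Abcc10 (351, exon 13 of 21, assigned Dlk2). Window GC content was 62.5% in Lrp6 against 34.0% in its flanks, 67.5% in Runx1 against 47.0%, and 53.5% in Lingo1 against 56.8%, so the tallest coding members were not all richer in GC than their surroundings.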
